A study of Bos taurus with 27 samples.

Results

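The fibroblast growth factor (FGF) pathway was described through 10 of the 32637 genes counted in bovine blastocysts. These were the ligands FGF2 and FGF4, the receptors FGFR1, FGFR2, FGFR3 and FGFR4, the feedback inhibitors SPRY2, SPRY4 and DUSP6, and the transcriptional target ETV4. They were chosen by symbol for their roles and not by a rule on their values, though earlier results of these data were known. All 10 were found in the table of counts. Of these, 7 reached at least 1 CPM (the reads of a gene scaled to 1000000 reads on all genes of the pool) in 12 or more blastocyst pools and were retained for testing among 12310 genes. FGF2, FGF4 and ETV4 were not retained.

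The samples were 27 pools of RNA, each from 2 expanding or expanded Bos taurus blastocysts of quality score 1. All embryos came from oocytes of abattoir ovaries that were matured in vitro, fertilized with semen of the same bull and cultured to the blastocyst stage. The maturation medium held follicular fluid, pooled over cows, from preovulatory follicles of either greater or lesser maturity. Which of these fluids a given pool received, and its in vitro fertilization replicate, were not assigned here, so the fluids were not compared and all values are given over the 27 pools. The methods name fewer fertilization replicates than there are pools, so pools share replicates. The tests treat pools as independent, so p-values measure only the spread among these pools and may be too small.

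FGF ligands bind receptor tyrosine kinases on the cell surface together with heparan sulfate, and the receptors signal through RAS and the kinase ERK. ERK activity raises transcription of ETV factors and of the pathway's own inhibitors, the Sprouty proteins and the ERK phosphatase DUSP6, whose transcripts are therefore often used as a readout of the pathway. In the mammalian blastocyst, FGF4 is made by cells of the early epiblast and favours the hypoblast fate in their neighbours, while FGF2 is known in cattle as a uterine and embryonic factor that stimulates interferon tau production by the trophectoderm.

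The total count per pool was between 10517606 and 44253564, with a median of 22293594, and 3 counts were equal to between 0.0678 and 0.285 CPM. Reads were counted rather than molecules, and such limits cover counting error only. KRT8 and KRT18, keratins of the outer epithelium, had medians of 18607 and 7937 CPM. The trophectoderm transcription factors CDX2, TFAP2A and TEAD4 were counted in every pool at lower medians of 3.62, 6.25 and 17.9 CPM. GATA2, GATA3 and TFAP2C, also trophectoderm factors, were counted in every pool with medians of 63.6, 132 and 221 CPM. NANOG and PRDM14, markers of the epiblast, and GATA6 and PDGFRA, markers of the hypoblast, were also counted in every pool, with medians of 51.6, 22.2, 211 and 38.2 CPM. SOX17, FOXA2 and NODAL stayed below 1 CPM in all pools. GATA4, also on the hypoblast list, had a median of 0.896 CPM and was not retained. Pool 9 stood apart from the others. It had the lowest hypoblast and trophectoderm marker scores and the highest sums of interferon tau and leukocyte transcripts, at 597 and 86.0 CPM against medians of 41.9 and 32.3 CPM, so results that rest on it are given with and without it. Because each pool mixed all cells of its embryos, fewer cells of a type and less RNA per cell could not be told apart.

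The members spanned a wide range of abundance, with FGFR3 at the top and FGF4 at the bottom. The order of medians was FGFR3, DUSP6, SPRY2, SPRY4, FGFR2, FGFR1, FGFR4, ETV4, FGF2 and FGF4. Reads came from the 3′ end of transcripts, so CPM was not divided by length, and the order is one of read shares that depends on how each 3′ end is annotated. Several neighbours in this order could not be separated by their spread. SPRY4 exceeded FGFR2 in 16 of 27 pools, FGFR2 exceeded FGFR1 in 15, and DUSP6 exceeded SPRY2 in 18. By contrast, FGFR3 exceeded DUSP6 in 26 pools, SPRY2 exceeded SPRY4 in 27, and FGFR1 exceeded FGFR4 in 24.

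**Figure D1:**
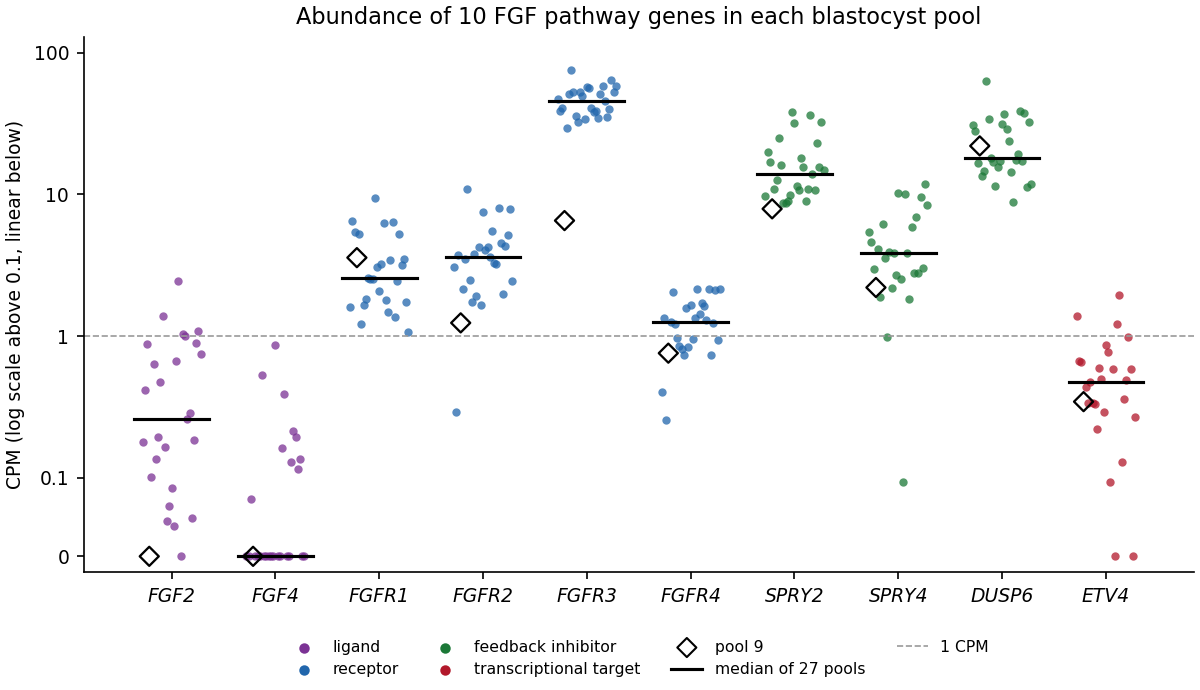
Abundance of the 10 genes, with CPM on the vertical axis (logarithmic above 0.1, linear below) and 1 point per blastocyst pool. Horizontal bars are medians of the 27 pools, colours give the role, the diamond is pool 9 and the dashed line is 1 CPM; FGFR3 lies highest with a median of 45.7 CPM, and most pools have no FGF4 read.

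Both ligands were near the detection limit. FGF4, the ligand of the early epiblast on chromosome 29 (47001981 to 47003919, ARS-UCD2.0), had no read in 17 of the 27 pools. In the other 10 pools it had between 2 and 11 reads, 51 reads in all. Its highest value was 0.871 CPM in pool 25, with a 95% Poisson interval of 0.418 to 1.60 CPM, followed by 0.532 CPM in pool 15 and 0.388 CPM in pool 32. At this depth a zero for FGF4 shows only that its share was below the limit of 3 counts. FGF2, on chromosome 17 (34801330 to 34860849), had reads in 25 pools, with a median of 0.258 CPM and a highest value of 2.44 CPM in pool 31. It reached 1 CPM in 5 pools and had no read in pools 9 and 32. Its span overlaps that of NUDT6 between 34801330 and 34807161. NUDT6 had a median of 0.230 CPM. The use of strand in counting is not stated in the sources used here, and overlap of exons was not examined. Reads of the pair may therefore not be told apart in that stretch.

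Of the 20 other FGF family genes listed as ligands, 2 were retained and 3 had no read in any pool. FGF9, which signals in many embryonic tissues, was counted in all 27 pools, between 0.453 CPM in pool 32 and 5.96 CPM in pool 21, with a median of 2.33 CPM. FGF12, an intracellular member of the family that does not act as a classical secreted ligand, ranged from 0 CPM in pool 42 to 8.42 CPM in pool 24, with a median of 1.90 CPM. The median of FGF9 was thus above those of both FGF2 and FGF4. The 20 genes together, FGF12 among them, summed to between 3.52 and 15.5 CPM per pool, so this is not a sum of secreted ligands alone.

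FGFR3 was the main receptor transcript. FGFR3 (chromosome 6, 116766308 to 116781167) was lowest in pool 9 at 6.54 CPM, had a median of 45.7 CPM and was highest in pool 14 at 75.9 CPM. Outside pool 9, every pool had at least 29.7 CPM, the value of pool 12. It exceeded FGFR1, FGFR2 and FGFR4 in all 27 pools. Of the summed CPM of the 4 receptors, FGFR3 made up between 54.0% in pool 9 and 91.1% in pool 46, with a median of 83.4% and a lowest value of 76.3% without pool 9. The receptors summed to between 12.1 CPM in pool 9 and 89.8 CPM in pool 14, with a median of 52.6 CPM.

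The other 3 receptors had lower medians than FGFR3. FGFR2, the receptor most used by epithelia (chromosome 26, 41450677 to 41557736), was lowest at 0.293 CPM in pool 5, from 7 reads, had a median of 3.62 CPM and was highest at 10.97 CPM in pool 14. Its share of the receptor sum was between 0.621% and 12.5%. Its span holds the non-coding LOC132343968 (41513909 to 41518305). Only whole spans were compared, so whether exons of the 2 genes overlap and their reads could mix was not examined. FGFR1, the receptor through which FGF4 acts on early inner cell mass cells in the mouse (chromosome 27, 33548428 to 33599029), was lowest at 1.07 CPM in pool 46, had a median of 2.59 CPM and was highest at 9.49 CPM in pool 23. FGFR1 and FGFR2 changed places between pools, with FGFR1 above FGFR2 in 12 of them. FGFR1 reached its largest share, 29.5%, in pool 9, where FGFR3 was low. FGFR4, best known as the receptor for endocrine FGF19 (chromosome 7, 38575626 to 38586374), was lowest at 0.257 CPM in pool 6, had a median of 1.25 CPM and was highest at 2.15 CPM in pool 31, and 16 pools reached 1 CPM.

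**Figure D2:**
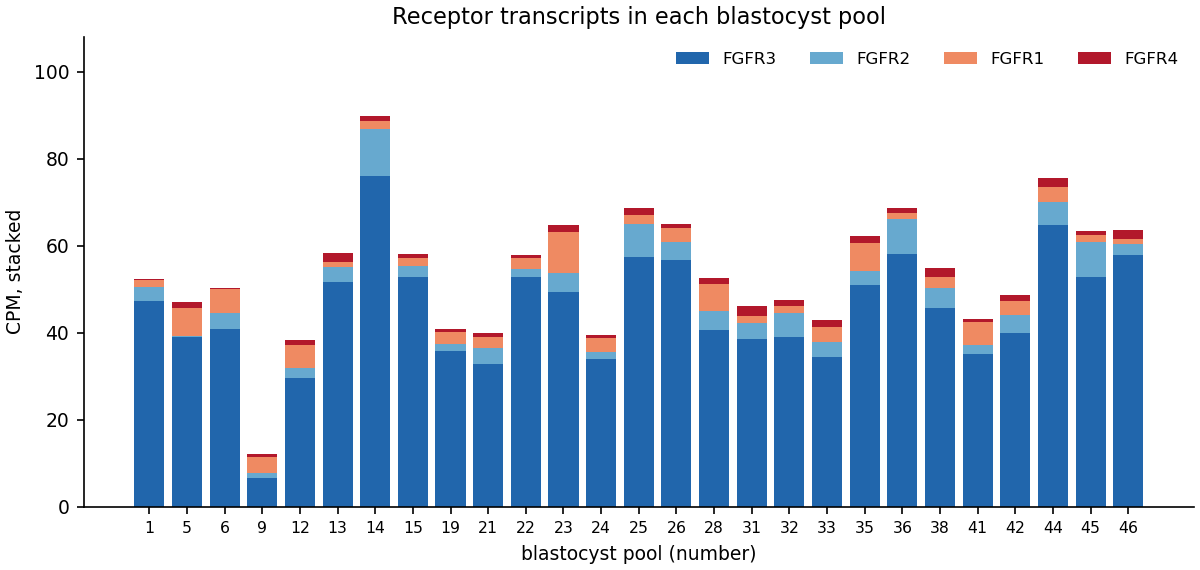
Stacked CPM of FGFR3, FGFR2, FGFR1 and FGFR4 (vertical axis) in each of the 27 blastocyst pools (horizontal axis, by pool number). FGFR3 is the largest part of every bar, and the bars run from 12.1 CPM in pool 9 to 89.8 CPM in pool 14.

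DUSP6 and SPRY2 had higher counts than either ligand in every pool. DUSP6, the phosphatase that inactivates ERK (chromosome 5, 19212969 to 19217426), was lowest at 8.88 CPM in pool 33, had a median of 18.1 CPM and was highest at 63.5 CPM in pool 14, with the next value at 38.9 CPM in pool 38. SPRY2, a membrane-associated inhibitor upstream of RAS (chromosome 12, 55341979 to 55347266), was lowest at 7.92 CPM in pool 9, had a median of 14.0 CPM and was highest at 38.2 CPM in pool 24. SPRY2 was above 30 CPM in pools 24, 25, 36 and 45, and in no other pool did it exceed 24.9 CPM. In these 4 pools, in the same order, DUSP6 had 17.3, 31.4, 19.2 and 32.5 CPM, against its median of 18.1 CPM. SPRY4, a related Sprouty inhibitor (chromosome 7, 53336846 to 53351174), had a median of 3.88 CPM and was highest at 11.8 CPM in pool 45. SPRY4 was lowest at 0.0951 CPM in pool 28, where a single read gives a 95% Poisson interval of 0.00241 to 0.530 CPM. The next lowest pool had 0.987 CPM, so pool 28 was below all others for SPRY4. ETV4, an ETS family factor induced by FGF signalling (chromosome 19, 43447252 to 43462786), had reads in 25 pools but reached 1 CPM in only 3, with a median of 0.475 CPM and a highest value of 1.95 CPM in pool 35.

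The other genes of the pathway were taken from a list of 63, of which 35 were retained. All 8 adaptors were retained, as were 9 of 10 genes of the RAS to ERK cascade, 6 of 8 co-receptors and decoys, 5 of 9 other feedback inhibitors and 5 of 8 other transcriptional targets. GRB2 and PTPN11, which couple receptors to RAS, had medians of 117 and 111 CPM. NRAS and HRAS, the small GTPases at the head of the cascade, had medians of 152 and 93.3 CPM. MAPK3, which encodes the kinase ERK1, was not retained, with a median of 0.389 CPM. Among co-receptors, the heparan sulfate proteoglycan SDC4 had a median of 103 CPM and the FGF receptor-binding membrane protein FLRT3 had a median of 32.3 CPM. KLB, the co-receptor for endocrine FGFs, ranged from 0 CPM in pool 21 to 9.98 CPM in pool 36, with a median of 3.37 CPM.

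Among the remaining inhibitors, DUSP5, a nuclear ERK phosphatase, had a median of 35.6 CPM and SPRED1, which restrains RAS activation, a median of 25.3 CPM. DUSP4 had reads in 6 pools and did not reach 1 CPM. SPRY1 and SPRY3 were not retained, so that SPRY2 and SPRY4 were the Sprouty transcripts measured well. Of the other targets, IER3 and FOS, both immediate early genes, had medians of 52.0 and 46.6 CPM. ETV5, the relative of ETV4, was retained with a median of 3.12 CPM and a range of 0.0365 to 6.15 CPM, whereas ETV1 never reached 1 CPM.

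**Figure D3:**
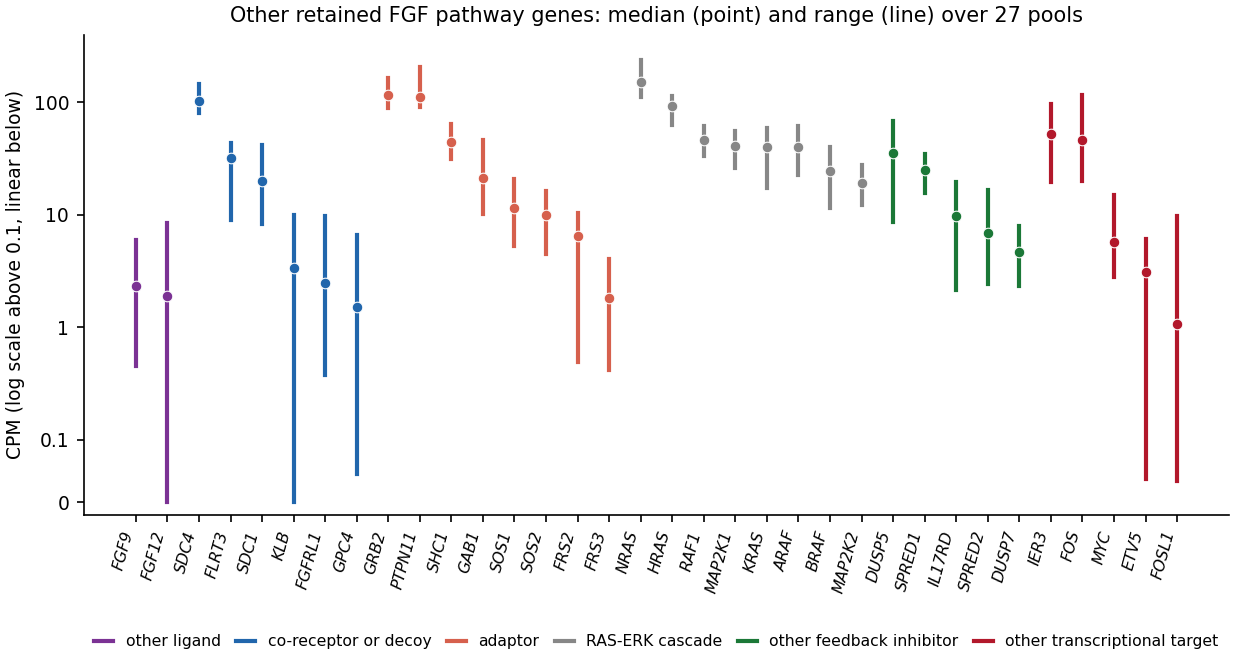
Median (point) and lowest to highest value (line) over 27 pools for retained genes of the wider pathway that are reported here, in CPM (logarithmic above 0.1, linear below), coloured by role. NRAS has the highest median, 152 CPM, and the 2 FGF family genes listed as ligands lie near 2 CPM, with medians of 2.33 CPM for FGF9 and 1.90 CPM for FGF12.

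Whether the members moved with the embryo's lineages was examined with marker scores. A score was the mean log2(CPM + 1) of the retained markers of a lineage, none of them a member, namely NANOG, SOX2, PRDM14, TDGF1 and GDF3 for epiblast, GATA6, PDGFRA, HNF4A and RSPO3 for hypoblast, and 8 genes including CDX2, GATA3 and KRT8 for trophectoderm. GATA4, SOX17 and FOXA2 of the hypoblast list and NODAL of the epiblast list were not retained. The scores thus stand only for the markers they hold. Each retained gene was fitted on a score with edgeR's quasi-likelihood test, and the slope is the log2 change in a gene's abundance for each unit of the score. P-values were adjusted over all retained genes outside the score by the Benjamini-Hochberg method.

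SPRY2 increased with the epiblast score. It was the only one of the 7 retained members called by edgeR (adjusted p under 0.05), when 0.236% of the 12305 genes tested were called. The slope was 0.91 ± 0.19 (SE, 27 pools), with an adjusted p of 0.0283 from edgeR and 0.00174 from DESeq2, which called 0.796% of genes. The rank correlation was 0.597 (permutation p = 0.00107, adjusted p = 0.148) and Pearson's r was 0.616 (permutation p = 0.00054, adjusted p = 0.0949), so the correlations did not pass the adjustment. By rank correlation 0 of the 12305 genes tested did. Without the 2 pools farthest from the median score r was 0.593, and without pool 9 the slope was 0.92 with an adjusted edgeR p of 0.0192, when 0.244% of genes were called. The pools highest in SPRY2, namely 24, 36 and 45, were also among those with the highest epiblast scores. DUSP6 had a slope of 0.41 ± 0.23 (SE) on the same score, with an adjusted edgeR p of 0.663. SPRY2 had a higher rank correlation, 0.694, with the hypoblast score described next, on which edgeR did not call it. How far the epiblast and hypoblast scores vary together was not tested.

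SPRY2, FGFR2 and FGFR3 had positive slopes on the hypoblast score, but no member was called on it by edgeR, when 0.0569% of 12306 genes were. At an unadjusted edgeR p under 0.05, 4 of the 7 members passed, against 14.4% of all genes. By rank correlation 5 did so at an unadjusted permutation p under 0.05, against 11.8%. FGFR1 was in both counts with a negative relation, and the other members in them had positive ones. DESeq2 called FGFR3 and SPRY2, when it called 3.04% of 8487 genes, and gave no adjusted p for FGFR1, FGFR2, FGFR4 and SPRY4. By comparison, edgeR without a filter called FGFR2, FGFR3 and SPRY2, when it called 2.50% of 24634. SPRY2 had a slope of 0.99 ± 0.25 (SE), an adjusted edgeR p of 0.0716, a rank correlation of 0.694 (permutation p = 0.0001, adjusted p = 0.123) and a Pearson's r of 0.605 (permutation p = 0.00056, adjusted p = 0.083). FGFR2 had a slope of 1.19 ± 0.33 (SE), an adjusted edgeR p of 0.101, a rank correlation of 0.692 (permutation p = 9e-05, adjusted p = 0.123) and a Pearson's r of 0.587 (permutation p = 0.00176, adjusted p = 0.122). Without the 2 farthest pools r was 0.700 for SPRY2 and 0.611 for FGFR2. Without pool 9, edgeR called 0% of genes on this score and no member. Rank correlations without pool 9 were 0.657 for both SPRY2 and FGFR2, and 0.450 for FGFR3.

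FGFR3 had a slope of 0.88 ± 0.21 (SE) on the hypoblast score with an adjusted edgeR p of 0.0713, and the slope fell to 0.44 without pool 9. GATA6, the marker with the most reads in the hypoblast score, was also low in pool 9, at 19.5 CPM against 98.6 CPM in the next lowest pool. FGFR1 ran the other way, with a slope of -0.91 ± 0.40 (SE) and an adjusted edgeR p of 0.295. Its rank correlation was -0.501 (permutation p = 0.00833, adjusted p = 0.309). FGFR1 thus did not pass either test after adjustment. SPRY4 and DUSP6 had adjusted edgeR p-values of 0.511 and 0.549 on this score.

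FGFR3 was the only member called on the trophectoderm score, when 7.14% of 12302 genes were, and that call rested on pool 9. At an unadjusted edgeR p under 0.05, 3 members passed, against 24.5% of genes, and DESeq2 called FGFR3 alone, against 11.2%. Its slope was 1.23 ± 0.39 (SE) with an adjusted edgeR p of 0.0492, and Pearson's r was 0.587 (permutation p = 0.00148, adjusted p = 0.0297) but the rank correlation was 0.323 (permutation p = 0.0998, adjusted p = 0.317). Without pool 9 the slope of FGFR3 was 0.67 with an adjusted edgeR p of 0.186, and without the 2 pools farthest from the median, which were pools 9 and 14, r was 0.199. DUSP6 had a slope of 1.32 ± 0.45 (SE) with an adjusted edgeR p of 0.0667. Without pool 9, DUSP6 was called with a slope of 1.87 and an adjusted edgeR p of 0.0345, when 4.88% of all genes were called. Without pools 9 and 14 its slope was 1.44 with an adjusted edgeR p of 0.167, and over all pools its rank correlation was 0.405 (permutation p = 0.0366, adjusted p = 0.188). The highest value of DUSP6 was in pool 14, which also had the highest trophectoderm score.

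**Figure D4:**
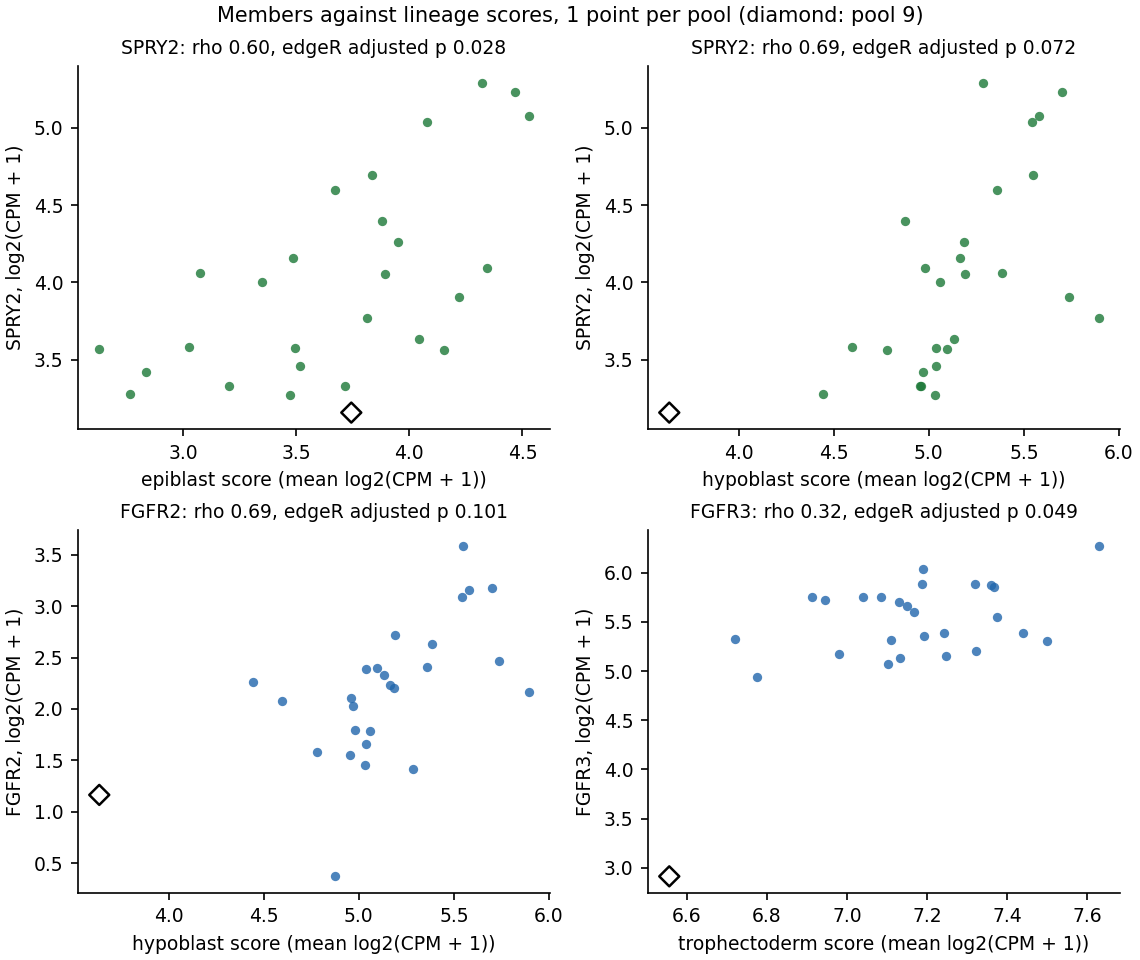
SPRY2 against the epiblast and hypoblast scores, FGFR2 against the hypoblast score and FGFR3 against the trophectoderm score, each as log2(CPM + 1) on the vertical axis and mean log2(CPM + 1) of the markers on the horizontal axis, 1 point per pool. Pool 9, the diamond, lies far from the others in FGFR3, at 6.54 CPM against 29.7 CPM or more.

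The sum of interferon tau transcripts, the trophectoderm product that maintains pregnancy in cattle, ranged from 7.21 to 597 CPM. No member was called on it by edgeR or DESeq2, when edgeR called 2.29% and DESeq2 4.19% of 12308 genes. None had an unadjusted edgeR p under 0.05, against 16.3% of genes, and none was called without pool 9, against 0.333%. By rank correlation 2 members, FGFR1 and FGFR2, had an unadjusted permutation p under 0.05, against 15.4% of genes.

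Leukocyte and cumulus or granulosa markers were also counted in the pools, and no member was called on either score by edgeR, when 0.951% and 2.65% of 12305 genes were. The leukocyte sum of 7 genes ranged from 13.4 to 86.0 CPM, with LAPTM5 at no more than 4 reads in any pool. The cumulus or granulosa sum of 10 genes ranged from 23.9 to 81.0 CPM, with 1 read of FOXL2 over all pools. FGFR3 had a slope of -0.41 ± 0.18 (SE) on the leukocyte score, with an unadjusted edgeR p of 0.0298 and an adjusted p of 0.312. It was the only member past an unadjusted edgeR p of 0.05 on either score, when 13.4% of genes on the leukocyte score and 2097 of 12305 on the cumulus or granulosa score were, and its slope was -0.21 without pool 9. By rank correlation FGFR2 and FGFR3 were past an unadjusted 0.05 on the leukocyte score, against 9.93% of genes. SPRY2 had an adjusted edgeR p of 0.799 on the leukocyte score and 0.891 on the cumulus or granulosa score. No member was called on the total count of the pool or on the mitochondrial mRNA share, when 0% of genes were in both cases and 2.76% and 9.22% had an unadjusted edgeR p under 0.05.

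Among the 21 pairs of retained members, 14 rank correlations were positive and 7 were negative, and none was called by edgeR in either direction of fitting. The highest was between FGFR2 and FGFR3, with a rank correlation of 0.562 (permutation p = 0.00268, adjusted p = 0.307) and a Pearson's r of 0.527 (permutation p = 0.00842). The lower of its adjusted edgeR p-values was 0.0646, and its rank correlation was 0.515 without pool 9. SPRY2 and SPRY4 followed at 0.487 (permutation p = 0.0107, adjusted p = 0.800), with a Pearson's r of 0.473 (permutation p = 0.0125). In all, 6 of 21 pairs had an unadjusted permutation p under 0.05. The share of all genes past that limit was 8.34% against FGFR1, 13.4% against FGFR2, 10.7% against FGFR3, 13.6% against FGFR4, 13.2% against SPRY2, 5.79% against SPRY4 and 11.1% against DUSP6. FGFR1 stood apart from the rest, with negative rank correlations in 6 of its 6 pairs and a median of -0.27, although no edgeR p-value passed the adjustment. The 15 pairs without FGFR1 had a median of 0.319, and 14 of them were positive. Pairs share members, so they are not independent. Of all genes, between 39.3% (against DUSP6) and 56.8% (against FGFR4) had a positive rank correlation with a given retained member.

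**Figure D5:**
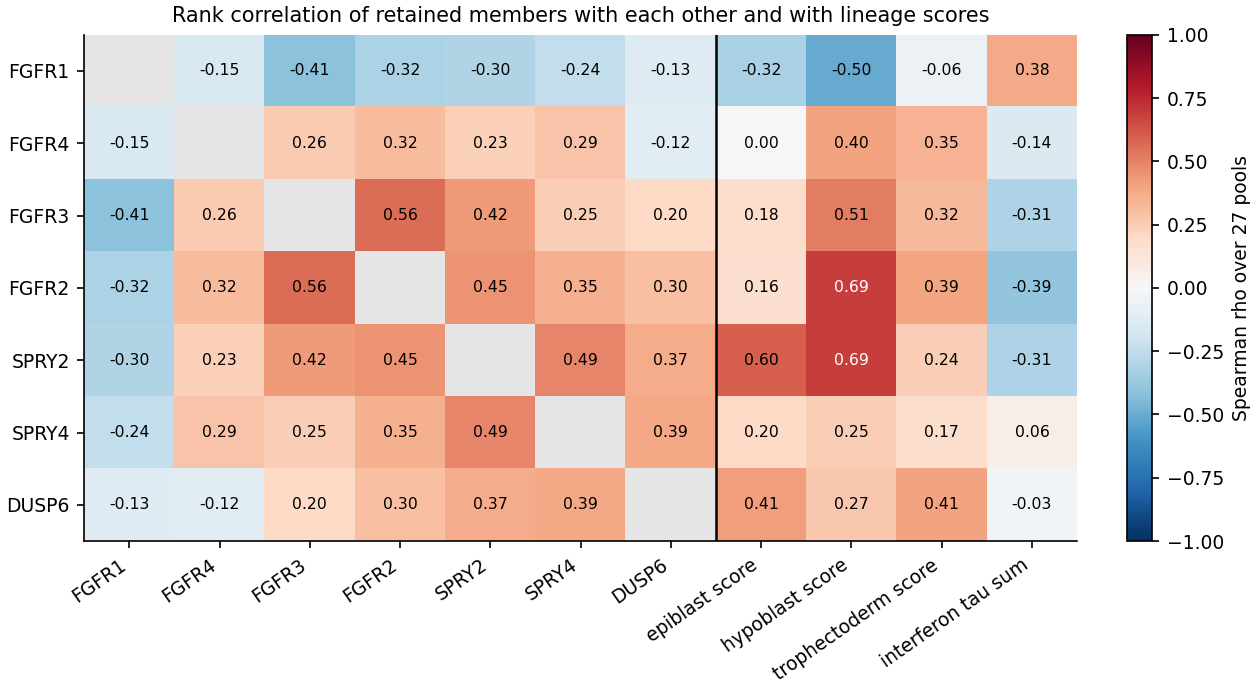
Spearman correlations over 27 pools among the 7 retained members (left of the line) and with 3 lineage scores and the interferon tau sum (right), with red for positive and blue for negative values. The row of FGFR1 is blue against every other member, and SPRY2 and FGFR2 have their highest values, 0.69, against the hypoblast score.

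Of the 35 retained genes of the wider pathway, between 0 and 3 were called on any lineage score. On the epiblast score it was FLRT3 alone, with a slope of 0.73 ± 0.14 (SE) and an adjusted edgeR p of 0.0195, when 0.236% of all genes were called. FLRT3 thus increased with the same score as SPRY2, and it had an adjusted p of 0.0192 without pool 9. On the hypoblast score no pathway gene was called by edgeR, while 6 of 35 had an unadjusted p under 0.05, against 14.4% of all genes, and DESeq2 called NRAS and SPRED2. On the trophectoderm score 3 of 35 were called, against 7.14% of all genes, of which PTPN11 and ARAF increased with slopes of 0.74 and 0.79 and NRAS decreased with a slope of -0.54. Their adjusted edgeR p-values were 0.0169, 0.0418 and 0.0412, and without pool 9 only PTPN11 stayed called, at 0.00904. IER3 was the only pathway gene called on the interferon tau sum by edgeR, when 2.29% of all genes were, with a slope of 0.26 per doubling and an adjusted edgeR p of 0.0415, which became 0.0544 without pool 9.

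By edgeR, 405 genes or 3.29% of 12309 were called against the level of FGFR3, and 0 of them were called without pool 9. By the adjusted Spearman permutation test 0 genes were called against FGFR3 and 71 against FGFR4. Among the genes that edgeR called against FGFR3, the pathway genes NRAS (slope -0.28, adjusted edgeR p = 0.00417) and SPRED2 (slope 0.65, adjusted edgeR p = 0.0494) had adjusted p-values of 0.691 and 0.723 without pool 9. Against SPRY2, 1 gene was called (0.00812% of those tested), LOC515333, with an adjusted edgeR p of 0.00388. No gene was called by edgeR against FGFR1, FGFR2, FGFR4, SPRY4 or DUSP6, 0% of genes in each case. At an unadjusted edgeR p under 0.05 the share was 7.56% for FGFR1, 13.4% for FGFR2, 12.2% for FGFR4, 6.06% for SPRY4 and 8.18% for DUSP6.

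The genes whose levels over the 27 pools ranked most like those of a member are given as a description, since they were chosen for the highest rank correlation. For FGFR3 they were the DNA methyltransferase DNMT3B (0.837), the translation initiation factor EIF3B (0.710) and the adaptor CRKL (0.705). For FGFR2 they were LAMTOR2 (0.827), a subunit of the lysosomal Ragulator complex, PTPN9 (0.711) and PCNX1 (0.709). ZBTB8B (0.734), LOC112445062 (0.692) and RASL11B (0.690) were closest to FGFR1, and PARP1 (0.795) and ACTN1 (0.766) were among the 3 closest to FGFR4. None of these genes was another member, but each list holds only 3 of 12309 genes, so nothing is drawn from this.

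For the feedback inhibitors, LOC515333 (0.825), the basement membrane collagen COL18A1 (0.742) and the acyltransferase AGPAT2 (0.729) were closest to SPRY2. ACTMAP (0.742) and SETD1A (0.647) were among the 3 closest to SPRY4, and TMEM86A (0.730), NGEF (0.710) and SEMA4B (0.664) were closest to DUSP6. The 3 inhibitors had no gene in common among these. Lists of 3 out of 12309 genes are too short for this to tell the inhibitors apart.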

How the data were processed

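Libraries of the 27 pools were made with a SMART-Seq v4 3′ kit. The authors used fastp for trimming, STAR for mapping against ARS-UCD2.0 and featureCounts for counting by gene. The deposited values are raw counts of 32637 genes, not normalized or filtered. Tool versions are not given in the sources used here. No UMIs were counted, so values are reads.

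CPM was each count over its pool's total, times 1000000. The filter kept genes that reached 1 CPM in 12 or more pools. Columns were matched to pools by number. The labels give no treatment or replicate, so pools were treated as 1 set and no batch was used. Of 351 pairs of pools, none had counts within sampling noise (lowest chi-square per degree of freedom 23.9). Gene positions came from RefSeq, ARS-UCD2.0. That annotation table gave no transcript lengths, so values per length were not calculated.

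Slopes were tested with edgeR 4.0.16 (TMM normalization, factors 0.891 to 1.08, quasi-likelihood test, two-sided, Benjamini-Hochberg) in R 4.3.3, with DESeq2 1.42.0 as an alternative. Correlations had 100000 two-sided permutations of the pools, with Benjamini-Hochberg adjustment over all retained genes for each score or member. With so many genes, the smallest adjusted value could not pass 0.05 unless several genes reached the smallest p. Pearson's r used log2(CPM + 1). Other values were computed in Python 3.11.15 (scipy 1.17.1, pandas 2.3.3, numpy 2.4.6). Poisson intervals are exact and cover counting error only.

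The members, gene lists and tests were chosen with earlier results of these data known. The genes named are all members, the 3 genes of highest rank correlation with each retained member, the 2 most abundant genes of each role and lineage list, and genes called against FGF4. FGF4 was not retained, so fits on FGF4 were not run, and pathway genes called on other scores, and those outside these rules, were named after their values were seen. A few genes that these rules name are not reported here. The leave-out of pool 9 and the Pearson permutation test were chosen after seeing the data.

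The edgeR fits were tested on simulated data of 12310 genes, for the epiblast, hypoblast, trophectoderm and interferon tau covariates. Between 93 and 96 of 100 genes changed by 1 log2 unit per SD of the covariate and between 75 and 80 of 100 changed by 0.5 were recovered, with 1 to 7 false calls. The changed genes were drawn only from those above a minimum mean count. Counts were drawn independently for each pool, without shared replicates. Recovery and false calls may therefore differ in the real data.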

Additional observations from a re-analysis of the deposited data

How the results depend on the processing

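Members retained numbered 7 under 1 CPM in 12 pools and 4 when 1 CPM was required in all 27 pools. With no filter all 10 were included. On the epiblast score the count of members called was 1 with edgeR, when 0.236% of 12305 genes were. It was 0 by Spearman and by Pearson permutation tests. The Spearman test called 0 of all 12305 genes on this score, and the share for the Pearson test is not reported here. SPRY2 kept its direction in all 10 alternatives, with adjusted p-values between 0.00174 and 0.148. On the hypoblast score the count of members called was 0 with edgeR, when 0.0569% of 12306 genes were. It was 2 with DESeq2 (FGFR3 and SPRY2), when 3.04% of 8487 genes were called. It was 3 when all counted genes were tested without a filter (FGFR2, FGFR3 and SPRY2), when 2.50% of 24634 genes were called. On the trophectoderm score it was 1, and 0 with RLE in place of TMM, with the Spearman test, with no filter, with a pseudocount of 0.1, with total count as a second covariate, and without the 2 farthest pools. With the covariate from TMM CPM and without pool 9 the 1 member called was DUSP6, and FGFR3 had adjusted p-values of 0.0786 and 0.186. On this score edgeR called 7.14% of all genes over the 27 pools and 4.88% without pool 9. The share with the covariate from TMM CPM is not reported here. The adjusted p of FGFR3 on that score ranged from 0.0128 to 0.501. The causes of these changes were not tested. On the interferon tau sum it stayed at 0 in the 10 alternatives run. No slope of SPRY2, FGFR3 or FGFR2 named here reversed.

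Fits on FGF4 and values divided by transcript length were not run, as FGF4 was not retained and no transcript length was at hand. At 3 counts, the limit of 0.0678 to 0.285 CPM covers most values of FGF4 and part of those of FGF2 and ETV4. No paired analysis was possible because the labels give neither the treatment nor the replicate of a pool.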
